A study of Homo sapiens with 8 samples.

Results

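The genes described here are the metalloproteinases PAPPA and PAPPA2, the insulin-like growth factor binding proteins IGFBP2, IGFBP3, IGFBP4, IGFBP5, IGFBP6 and IGFBP7, and the stanniocalcins STC1 and STC2. They are 10 of the 69215 genes counted. PAPPA was chosen by its measured pattern, a level that differed between the cell lines and was lower once SMARCB1 was expressed, so its values in those comparisons are given as a description without a test. The other 9 genes were set beside it for what their proteins do.

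Insulin-like growth factors (IGFs) are held in the tissue fluid by IGFBPs, which keep them from their receptor. PAPPA is a secreted protease that cuts IGFBP4, and also IGFBP5 and IGFBP2, and so releases the bound growth factor, whereas its relative PAPPA2 cuts IGFBP3 and IGFBP5. STC1 and STC2 are secreted glycoproteins that bind PAPPA and block its activity. IGF2 and the IGF receptor have long been studied in embryonal tumors of childhood.

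RNA was sequenced from G401 cells. G401 is an established cell line of a kidney rhabdoid tumor, a childhood cancer that has lost the chromatin remodelling subunit SMARCB1. The cells carried a doxycycline (Dox) switch for SMARCB1 or, in a separate control line, for GFP, and both lines were kept for 12 h with 0.1 µg/ml Dox or with dimethylsulfoxide (DMSO), its solvent. This gave 4 groups of 2 libraries, named SMARCB1 DMSO, SMARCB1 Dox, GFP DMSO and GFP Dox. Groups of 2 libraries often fail to overlap without any true difference, so non-overlap is given below as a description only. According to the methods, 6 plates were pooled for each condition and the experiment was done in duplicate, with no statement of whether a line was 1 clone, so the p-values measure the spread between these libraries only. SMARCB1 and GFP were carried by different lines, and a difference between them without Dox cannot be told apart from other differences between the derived cells.

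The libraries held between 29632090 and 37597477 counts assigned to genes. SMARCB1 itself had 10 and 21 counts in its own line without Dox, 30474 and 29383 with Dox, and 0 in every GFP library. The rise with Dox in the SMARCB1 line alone is what the labels say. The few counts without Dox were also called higher than in GFP DMSO (edgeR adjusted p 9.5e-06), and their source was not tested. Mitochondrial genes took 27.9% and 23.9% of the SMARCB1 DMSO counts, 22.9% and 21.3% of the SMARCB1 Dox counts and 18.9% to 21.5% of those of the GFP libraries. Both SMARCB1 DMSO libraries, the controls of the Dox comparison, were thus above all 6 others. VIM, KRT8 and KRT18, which rhabdoid cells express, had at least 7408 counts in every library, and all 3 differed between the lines without Dox. VIM was 1.81-fold higher in SMARCB1 DMSO than in GFP DMSO, whereas KRT8 and KRT18 stood at 0.644 and 0.684 of their GFP DMSO levels (edgeR adjusted p 2.73e-08, 1.34e-05 and 1.74e-05). Of the 6 markers of other cells given here, CD3E of T cells and UMOD of the kidney tubule had 0 counts, PTPRC, PECAM1 and ALB had at most 3 and the endothelial gene CDH5 had 5 to 16 in the SMARCB1 line and 0 to 3 in the other line. The part of these markers and of the mitochondrial share in the differences between the groups was not tested.

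PAPPA (ENSG00000182752) spans positions 116153791 to 116402321 of chromosome 9 (GRCh38, plus strand). The SMARCB1 line gave 580 and 645 PAPPA counts without Dox and 392 and 511 with it, whereas the GFP line gave 0 and 0 without Dox and 2 and 5 with it. Levels are given as CPM, in which counts are divided by library sizes that edgeR had corrected for composition (TMM). PAPPA stood at 19.9 and 19.6 CPM in the DMSO libraries of the SMARCB1 line and at 11.0 and 14.6 CPM in its Dox libraries. Both Dox libraries were below both DMSO libraries of the SMARCB1 line, and all 4 were far above the GFP libraries. The fitted PAPPA level in SMARCB1 Dox was 0.65 of that in SMARCB1 DMSO, a log2 fold change of −0.62. Leaving out single libraries moved this value between −0.84 and −0.43.

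In the GFP line PAPPA RNA was at the edge of detection. GFP DMSO had 0 PAPPA counts, and a floor of 3 counts over its pooled libraries was 0.0416 CPM. Measured against this floor, the PAPPA level in SMARCB1 DMSO was 475-fold higher. The 95% Poisson interval of 0 counts there reached somewhat higher, to 0.0511 CPM. The 7 counts in GFP Dox correspond to 0.104 CPM, with a 95% Poisson interval of 0.0418 to 0.214. Between SMARCB1 Dox and GFP Dox the PAPPA ratio was 123, with an interval of 59.6 to 307. These intervals and floors cover counting error only, since copies made by PCR are not independent molecules. In bulk RNA, fewer cells with PAPPA RNA and less PAPPA RNA per cell cannot be told apart.

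The genes around PAPPA were read in all 8 libraries and were named after their values were seen. ASTN2, which lies 20.8 kb beyond the end of PAPPA on the opposite strand, stood at 12.4 and 14.4 CPM in SMARCB1 DMSO, 7.73 and 8.70 CPM in SMARCB1 Dox, 10.0 and 10.7 CPM in GFP DMSO and 12.0 and 11.3 CPM in GFP Dox. Both SMARCB1 DMSO libraries were above all the others and both SMARCB1 Dox libraries below them. With Dox ASTN2 fell to 0.612 of its level in the SMARCB1 line, a log2 fold change of −0.71 (SE 0.132, edgeR adjusted p 0.000755), beside 0.17 in the GFP line, and the difference of these effects was −0.88 (edgeR adjusted p 0.00647). Between the lines without Dox ASTN2 was 1.3-fold higher in SMARCB1 DMSO (log2 fold change 0.37, edgeR adjusted p 0.0313). That call was lost with library totals as the scaling (0.26), without the filter on low counts (0.37), with DESeq2 (0.36) and without SMARCB1 DMSO replicate 2 (0.26), GFP DMSO replicate 1 (0.33) or GFP DMSO replicate 2 (0.41). TRIM32, 285 kb away, stood at 21.1 to 25.9 CPM and was not called in any comparison. On the other side of PAPPA, TNFSF8 had 0 counts and TNC 2 counts in all. The antisense gene PAPPA-AS1 shares 2450 bases with PAPPA exons, which is 21.2% of their length, and its counts were 8 to 26. The strand option used in counting was not given in the sources used here, so reads from this stretch could not be assigned to either gene with certainty.

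The protein-coding genes with the pattern most like that of PAPPA were NLGN1, FRY, IKZF2, MID1IP1 and PAQR5. Likeness was the root mean square difference of log2 CPM over the 8 libraries, after each gene was centred on its own mean, and it was 0.56 for NLGN1, 0.65 for FRY, 0.66 for IKZF2, 0.66 for MID1IP1 and 0.76 for PAQR5. Over the 12411 genes compared the median was 3.73, and the span of PAPPA itself was 8.41 on the log2 scale. NLGN1, a neuronal adhesion protein, averaged 72.9 CPM without and 56.6 CPM with Dox in the SMARCB1 line, and 0.536 and 0.757 CPM in the GFP line. All 5 genes shared with PAPPA the gap between the lines, which follows from choosing them by this likeness. With Dox in the SMARCB1 line the mean was lower for NLGN1, IKZF2 and PAQR5. It was higher for FRY (37.1 and 46.4 CPM) and MID1IP1 (13.9 and 17.3 CPM). Over all genes tested the median log2 fold change of this comparison was −0.004, so a lower mean with Dox was not particular to these genes.

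PAPPA2 (chromosome 1, positions 176463171 to 176845601, plus strand) had 0 counts in all 8 libraries. Pooled over each group, the floor described for PAPPA was 0.0416 to 0.0483 CPM. The 95% Poisson interval of 0 counts reached higher, to between 0.0511 and 0.0594 CPM. A comparison of PAPPA2 between the groups was not possible at this depth.

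STC2 (ENSG00000113739) spans positions 173314723 to 173328447 of chromosome 5 (minus strand). In the SMARCB1 line it had 129 and 92 counts without Dox (4.42 and 2.79 CPM) and 388 and 265 counts with Dox (10.9 and 7.58 CPM). In the GFP line the counts were 1 and 13 without Dox and 2 and 7 with it, or 0.0296 to 0.339 CPM. Within the SMARCB1 line both Dox libraries were above both DMSO libraries, and the GFP libraries lay below all of these without a gap between their own groups. STC2, which blocks PAPPA, thus rose 2.58-fold with Dox in the SMARCB1 line, where PAPPA was lower.

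On the log2 scale STC2 rose by 1.36 (standard error, SE, 0.265), and the quasi-likelihood test of edgeR gave a p of 0.00112 after Benjamini-Hochberg adjustment over all genes tested. Without SMARCB1 Dox replicate 1 the fold change was 1.08 and the adjusted p 0.0538, and DESeq2, the tool named in the methods, gave 1.36 with an adjusted p of 0.377. Per exon length, in TPM (counts per base of exon scaled to a common sum), the ratio of STC2 to PAPPA was 0.509 and 0.326 in the DMSO libraries of the SMARCB1 line and 2.27 and 1.19 in its Dox libraries. PAPPA was thus the more abundant of these RNAs in both DMSO libraries and STC2 in both Dox libraries. As PAPPA is one side of this ratio, it is a description.

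STC1 (chromosome 8, positions 23841929 to 23854806, minus strand), the other PAPPA inhibitor, was close to 0. The SMARCB1 line gave 2 and 8 counts without Dox and 3 and 9 with it, and the 4 GFP libraries gave 0. Pooled, STC1 stood at 0.161 CPM (95% Poisson interval 0.0772 to 0.296) in SMARCB1 DMSO and at 0.170 CPM (0.0879 to 0.297) in SMARCB1 Dox. STC1 did not pass the filter on low counts and was not tested.

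**Figure D1:**
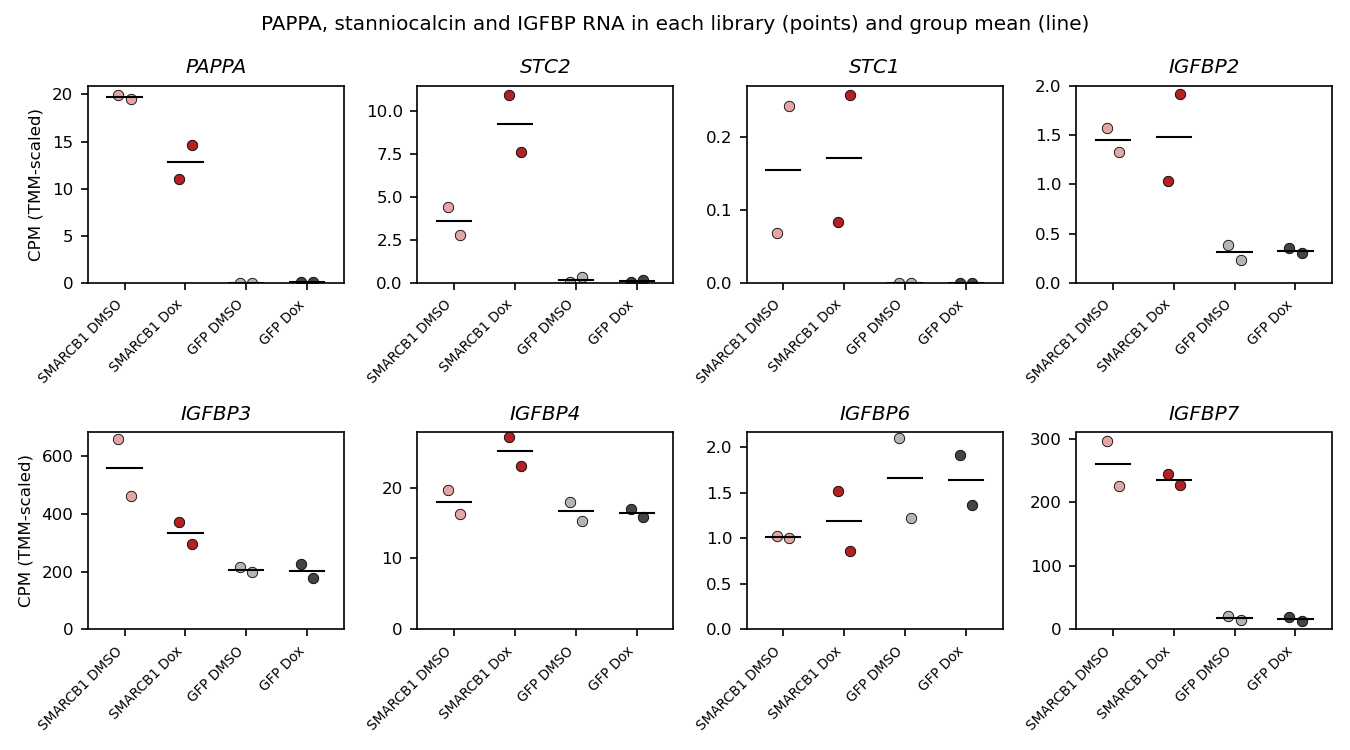
RNA level (CPM with TMM factors, linear axis from 0, a scale of its own for each gene) of PAPPA, STC2, STC1, IGFBP2, IGFBP3, IGFBP4, IGFBP6 and IGFBP7 in the 8 libraries, with a point for each library and a line for the mean of each group of 2. PAPPA and STC2 are near 0 in the GFP line and IGFBP7 is at 13.7 to 21.3, PAPPA stands at 19.9 and 19.6 without and 11.0 and 14.6 with Dox in the SMARCB1 line, STC2 at 4.42 and 2.79 and then 10.9 and 7.58, and IGFBP6 overlaps between SMARCB1 Dox and the GFP groups.

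The bases before the start sites of PAPPA, STC2 and IGFBP4 are shown because these genes, the protease, its inhibitor and its substrate, differed with Dox in the SMARCB1 line. They come from the RefSeq promoter table on GRCh38.p14, which reaches from 250 bases before to 50 after each start, and are printed 5′ to 3′ up to the first base of the gene. The table matched 8 of the 10 genes, and STC1 and IGFBP7 were not matched. Capitals mark the motif TATAAA and the CCAAT motif, which reads ATTGG on the other strand. The regions are chr9:116153541-116153790 on the plus strand for PAPPA, chr5:173328448-173328664 on the minus strand for STC2 and chr17:40443200-40443449 on the plus strand for IGFBP4.
PAPPA: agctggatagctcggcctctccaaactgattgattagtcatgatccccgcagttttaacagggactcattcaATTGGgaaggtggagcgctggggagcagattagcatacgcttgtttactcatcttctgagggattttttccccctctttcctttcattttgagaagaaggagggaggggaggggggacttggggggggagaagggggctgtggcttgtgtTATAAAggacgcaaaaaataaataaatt
STC2: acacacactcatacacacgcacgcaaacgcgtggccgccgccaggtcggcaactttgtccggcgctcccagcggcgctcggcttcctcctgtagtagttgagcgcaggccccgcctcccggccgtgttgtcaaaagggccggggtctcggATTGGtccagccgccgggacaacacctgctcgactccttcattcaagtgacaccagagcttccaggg
IGFBP4: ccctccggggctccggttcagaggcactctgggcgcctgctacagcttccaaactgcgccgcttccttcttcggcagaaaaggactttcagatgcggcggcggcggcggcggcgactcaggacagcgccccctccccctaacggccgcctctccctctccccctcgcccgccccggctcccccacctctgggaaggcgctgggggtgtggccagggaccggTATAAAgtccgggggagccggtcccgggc

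TATAAA began 28 bases before the start site in PAPPA and 29 bases before it in IGFBP4. CCAAT in reverse began 178 bases before the start in PAPPA and 100 bases before it in STC2, whose RefSeq start lies 33 bases inside the gene, beyond the end of the printed stretch. Motifs were searched on both strands. Over all 35116 promoters of the table, 11.5% held TATAAA and 34.6% held CCAAT. The AP-1 motif TGANTCA (7.7% of promoters) and the amino acid response motif TGATGNAA (3.6%) were not among the letters of the windows of PAPPA, STC2, IGFBP3 and IGFBP4. The PAPPA window held 6 CpG dinucleotides, against 28 for STC2, 36 for IGFBP3 and 30 for IGFBP4, where the quartiles over all promoters were 4, 14 and 28. The RefSeq start of IGFBP3 lies 602 bases inside the gene as GENCODE draws it, and its window is not printed. None of these matches was tested for a function.

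Among the carriers, IGFBP3 fell and IGFBP4 rose with Dox in the SMARCB1 line, whereas IGFBP2, IGFBP6 and IGFBP7 did not pass the test. Of the 9 genes other than PAPPA, 6 passed the filter and were tested (STC2, IGFBP2, IGFBP3, IGFBP4, IGFBP6 and IGFBP7), with 2 higher and 1 lower. Among all 15931 genes tested 14% were called, 8.33% higher and 5.69% lower. The median log2 fold change of the 6 genes was 0.12, beside −0.004 over all genes.

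IGFBP3 (ENSG00000146674; chromosome 7, positions 45912245 to 45921874, minus strand) codes for the main carrier of IGFs in blood. Without Dox it stood at 659 and 462 CPM in the SMARCB1 line and at 218 and 198 CPM in the GFP line. With Dox the values were 373 and 295 CPM in the SMARCB1 line and 228 and 179 CPM in the GFP line. Every SMARCB1 DMSO library was above every SMARCB1 Dox library, and these were in turn above the GFP libraries, whose groups overlapped. The level with Dox was 0.596 of that without in the SMARCB1 line, a log2 fold change of −0.75 (SE 0.134, adjusted p 0.000533, edgeR). Without SMARCB1 DMSO replicate 1, the library with the highest IGFBP3 level and the highest mitochondrial share, the fold change was −0.47 and the adjusted p 0.0151. The part of the mitochondrial share in this result was not tested.

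IGFBP4 (ENSG00000141753; chromosome 17, positions 40443450 to 40457725, plus strand) is the substrate for which PAPPA is best known. Without Dox its level was 19.6 and 16.2 CPM in the SMARCB1 line and 18.0 and 15.3 CPM in the GFP line. With Dox it was 27.2 and 23.1 CPM in the SMARCB1 line and 17.0 and 15.9 CPM in the GFP line. The SMARCB1 Dox libraries were above all the others, which overlapped. IGFBP4 rose 1.41-fold, a log2 fold change of 0.49 (SE 0.122, adjusted p 0.00837, edgeR). With a term for the replicate number in the fit (replicate block) the value was also 0.49 (edgeR adjusted p 0.000329). With the block and a correction for GC content it was 0.35 (edgeR adjusted p 0.0073). The call was lost without SMARCB1 Dox replicate 1 (0.37, edgeR adjusted p 0.13) or SMARCB1 DMSO replicate 2 (0.36, edgeR adjusted p 0.11). Per length, the ratio of IGFBP4 to PAPPA RNA in the SMARCB1 line was 5.18 and 4.35 without Dox and 13 and 8.3 with it, again as a description.

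IGFBP7 (ENSG00000163453; chromosome 4, positions 57030773 to 57110385, minus strand), a secreted protein with a low affinity for IGFs, stood at 296 and 226 CPM in the SMARCB1 line without Dox and at 244 and 226 CPM with it. These groups overlapped, and the log2 fold change was −0.15, with a 95% interval of −0.43 to 0.14. IGFBP2 (chromosome 2, positions 216632828 to 216664436, plus strand) was read there at 1.58 and 1.34 CPM without and 1.04 and 1.92 CPM with Dox. IGFBP6 (chromosome 12, positions 53097436 to 53102345, plus strand), which prefers IGF2, stood at 1.03 and 1.00 CPM without and 1.52 and 0.858 CPM with Dox. For both of these low genes the Dox libraries lay on either side of the DMSO libraries, with intervals of −0.72 to 0.77 for IGFBP2 and −0.53 to 0.99 for IGFBP6, so that a change of the size seen for IGFBP4 lay inside both intervals.

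IGFBP5 (chromosome 2, positions 216672105 to 216695549, minus strand), another substrate of PAPPA and PAPPA2, lies 7.7 kb from the end of IGFBP2. It had 0 counts in all 4 libraries of the SMARCB1 line. The GFP libraries had 2 and 3 counts without and 1 and 0 with Dox. In the SMARCB1 line the floor of 3 counts was 0.0483 CPM without Dox and 0.0425 CPM with it. The 95% Poisson interval of 0 counts reached 0.0594 and 0.0523 CPM. IGFBP5 was not tested.

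For Dox in the GFP line edgeR called 0% of all genes and so 0 of the 6, of which 0 had an unadjusted p under 0.05. Over all genes the smallest adjusted p was 1, 266 genes had an unadjusted p under 0.05, DESeq2 called 0 genes, and edgeR without the filter on low counts called 1. The log2 fold changes with Dox in the GFP line were −0.03 for IGFBP3 (95% interval −0.31 to 0.25) and −0.02 for IGFBP4 (−0.28 to 0.24). They were −0.11 for IGFBP7, 0.09 for IGFBP2 and −0.02 for IGFBP6. For STC2, at 14 and 9 counts in all, the value was −0.52 with an interval of −2.24 to 1.19. This overlaps the interval of 0.81 to 1.92 in the SMARCB1 line. Without GFP DMSO replicate 2 the STC2 value in the GFP line was 2.03.

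The Dox effects of both lines were then tested against each other. Among all genes 4.71% were called, and of the 6 genes this was IGFBP3 alone. The Dox effect on IGFBP3 in the SMARCB1 line minus that in the GFP line was −0.72 on the log2 scale (SE 0.19, 95% interval −1.11 to −0.32, edgeR adjusted p 0.0303). DESeq2 gave −0.71 with an adjusted p of 0.358. The edgeR call was also lost without SMARCB1 DMSO replicate 1 (−0.44), SMARCB1 Dox replicate 2 (−0.56), GFP DMSO replicate 2 (−0.64) or GFP Dox replicate 1 (−0.53).

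For IGFBP4 the difference of the Dox effects was 0.51 (95% interval 0.15 to 0.87), with an edgeR adjusted p of 0.111. With the replicate block and the GC correction it was 0.37. Without SMARCB1 DMSO replicate 1 it was 0.65, with an edgeR adjusted p of 0.0447. For STC2 the difference was 1.89 (0.07 to 3.7), with an edgeR adjusted p of 0.283, and it rested on few GFP counts. Without GFP DMSO replicate 2, which held 13 of the 14 STC2 counts of its group, the STC2 difference turned to −0.67. That the rises of STC2 and IGFBP4 belong to the SMARCB1 line alone is therefore not shown. For IGFBP2, IGFBP6 and IGFBP7 the differences were −0.07, 0.25 and −0.03.

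**Figure D2:**
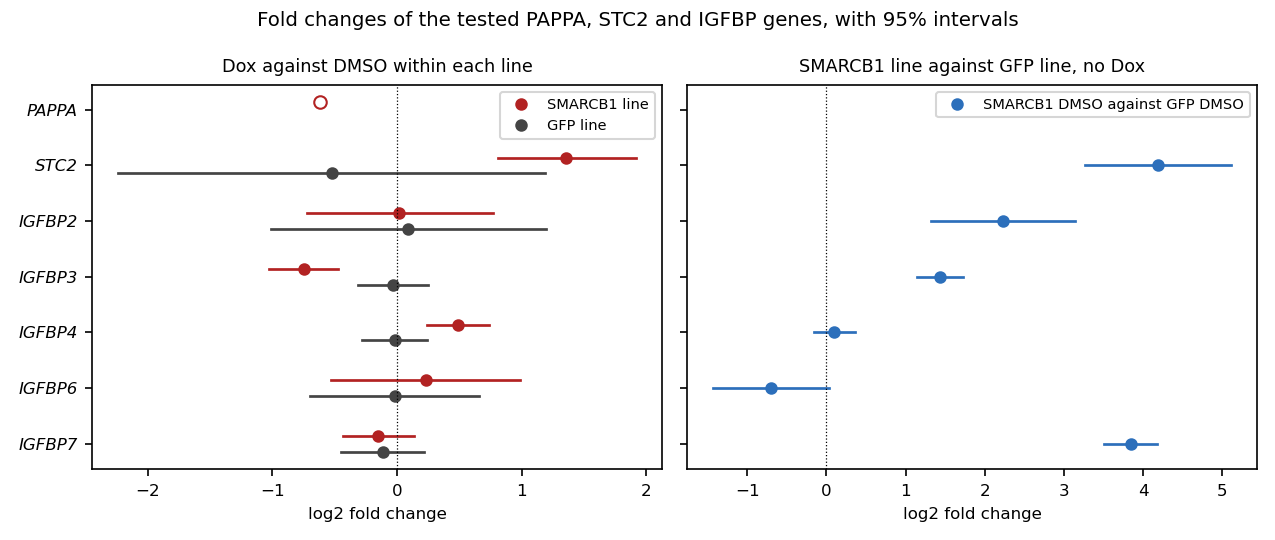
Log2 fold changes with 95% intervals (horizontal axis) from the edgeR fit for STC2 and the IGFBP genes that were tested, for Dox over DMSO within the SMARCB1 line (red) and the GFP line (grey) on the left, and for SMARCB1 DMSO against GFP DMSO (blue) on the right. PAPPA is shown by an open point without an interval on the left (−0.62) and is left out on the right, where GFP DMSO had 0 counts. IGFBP3 (−0.75), IGFBP4 (0.49) and STC2 (1.36) have red intervals that leave out 0, whereas every grey interval includes it.

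The lines were also compared without Dox, with the same SMARCB1 DMSO libraries that served as the control for Dox. STC2, IGFBP7, IGFBP2 and IGFBP3 were higher in SMARCB1 DMSO than in GFP DMSO, so that 4 of the 6 genes tested were higher and 0 lower. Among all genes 32% were called, 16.3% higher and 15.7% lower. The median of the 6 log2 fold changes was 1.83, beside 0.015 over all genes.

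IGFBP7 stood at 21.3 and 15.1 CPM in GFP DMSO and at 20.1 and 13.7 in GFP Dox, against 226 to 296 in the SMARCB1 line. No library of one line came near those of the other. SMARCB1 DMSO was 14.4-fold above GFP DMSO, a log2 fold change of 3.84 (SE 0.16, adjusted p 1.28e-14, edgeR). POLR2B, on the opposite strand, shares 260 bases with the exons of IGFBP7 and had 3722 to 6244 counts, with fewer counts in both SMARCB1 DMSO libraries than in those of GFP DMSO.

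STC2 was 18.2-fold higher in SMARCB1 DMSO, a log2 fold change of 4.19 (SE 0.444, adjusted p 1.28e-07, edgeR). The ratio of the pooled STC2 counts was 18.3, with a 95% interval of 10.7 to 34.1 that covers counting error only, not the spread between libraries. The size of the STC2 gap depended on the GFP DMSO libraries, with a log2 fold change of 6.75 without replicate 2 and 3.39 without replicate 1. STC2 in SMARCB1 Dox was 69.3 times its level in GFP Dox by pooled counts (36.3 to 152, again counting error only).

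IGFBP2 was read in the GFP line at 0.385 and 0.234 CPM without and 0.357 and 0.301 CPM with Dox, below every library of the SMARCB1 line. SMARCB1 DMSO was 4.7-fold higher than GFP DMSO (log2 fold change 2.23, SE 0.438, edgeR adjusted p 0.000379). IGFBP3 was 2.7-fold higher (log2 fold change 1.43, SE 0.137, edgeR adjusted p 2.42e-08). The level of IGFBP3 in SMARCB1 Dox lay between those of SMARCB1 DMSO and the GFP groups.

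IGFBP4 and IGFBP6 were not called between the lines. IGFBP4 had a log2 fold change of 0.10 (95% interval −0.16 to 0.36). IGFBP6 was read in the GFP line at 2.10 and 1.22 CPM without and 1.92 and 1.37 CPM with Dox, above both SMARCB1 DMSO libraries. Its log2 fold change was −0.70 (−1.43 to 0.03), with an edgeR adjusted p of 0.139.

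Levels were compared between genes per exon length, in TPM. In SMARCB1 DMSO, IGFBP7 averaged 283 ± 26.3 TPM (SD, n = 2) and IGFBP3 256 ± 39.1, a pair whose libraries overlapped in range. IGFBP4 followed at 17.05 TPM, PAPPA at 3.6, IGFBP6 at 1.59, STC2 at 1.48 and IGFBP2 at 0.645. The ranges of IGFBP6 (1.50 and 1.68) and STC2 (1.72 and 1.25) overlapped there. In GFP DMSO the order began with IGFBP3 at 115 ± 4.64 TPM, then IGFBP7 at 23.8 ± 5.07 and IGFBP4 at 19.1, the last pair overlapping, and IGFBP6 at 3.12. With the length of the longest transcript in place of all exons, IGFBP3 (392 TPM) and not IGFBP7 (337 TPM) came first in SMARCB1 DMSO.

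The summed IGFBP RNA was larger in the SMARCB1 line. Without Dox, IGFBP2 to IGFBP7 together made 558 ± 65.9 TPM in the SMARCB1 line and 162 ± 12.5 TPM in the GFP line (SD, n = 2). With Dox the sums were 500.2 ± 33.7 and 164 ± 32.3 TPM. TPM was scaled to the sum of all genes, mitochondrial ones included, without TMM factors, so its levels differ in scale from CPM between groups. From SMARCB1 DMSO to SMARCB1 Dox, IGFBP7 went from 283 to 294 TPM but from 261 to 235 CPM. IGFBP3 fell and IGFBP4 rose on both scales. IGFBP3 took 46.9% and 44.7% of this sum in the SMARCB1 line without Dox, 36.8% and 33.4% with Dox, and 69.5% to 73.3% in the GFP libraries. IGFBP7 took 49.8% and 51.6%, then 57.1% and 60.6%, and 13% to 16.1% in the GFP line. IGFBP4 took 2.9% and 3.24% of the sum in the SMARCB1 line without Dox, 5.56% and 5.41% with it, and 11.1% to 13.2% in the GFP libraries. The groups of the SMARCB1 line did not overlap in any of these 3 shares, which are parts of 1 sum and move together by construction. The shares were not tested. With the longest transcript as length, IGFBP4 took 1.90% and 2.15%, then 3.77% and 3.71%, and 7.01% to 8.39%. By that length IGFBP3 (53.6% and 51.3%) and not IGFBP7 (44.3% and 46.2%) was the larger part in SMARCB1 DMSO.

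**Figure D3:**
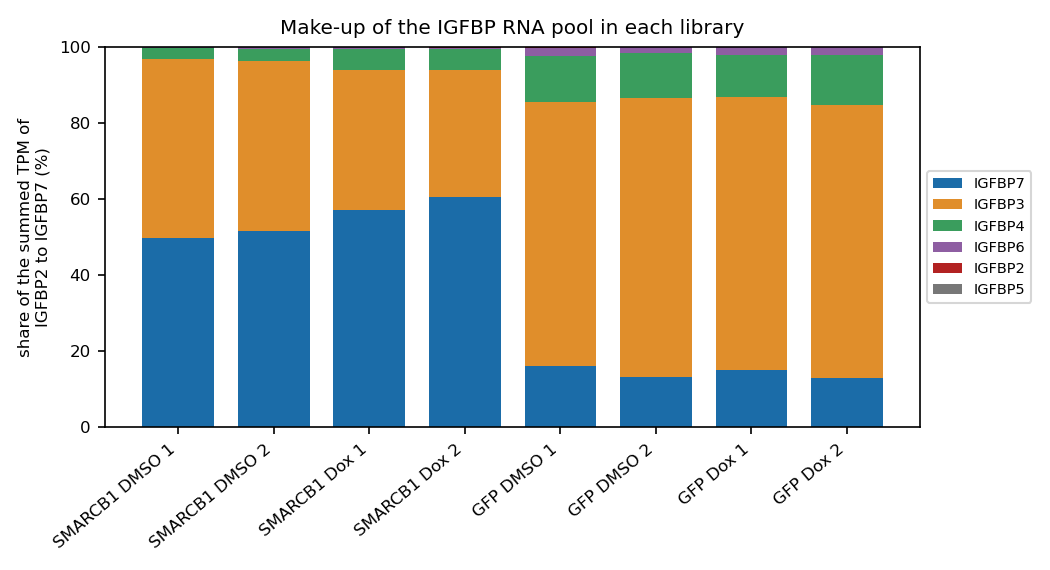
Share (%, vertical axis) of each IGFBP gene in the summed TPM of IGFBP2 to IGFBP7, 1 stacked bar per library. IGFBP7 (blue) makes 49.8% to 60.6% of the bars of the SMARCB1 line and 13% to 16.1% of those of the GFP line, where IGFBP3 (orange) makes 69.5% to 73.3%, and IGFBP2 and IGFBP5 are too small to see. Lengths are all exons of a gene, and with the longest transcript IGFBP3 is the larger part in SMARCB1 DMSO.

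The ratio of IGFBP3 to IGFBP4 RNA per length was 16.2 and 13.8 in the SMARCB1 line without Dox and 6.62 and 6.17 with it. In the GFP line it was 5.83 and 6.23 without Dox and 6.46 and 5.42 with it. With Dox the SMARCB1 line overlapped with the GFP line in this ratio, and both SMARCB1 DMSO libraries stood above all 6 others. With the longest transcript as length this became 28.1 and 23.9 without Dox, then 11.5 and 10.7 with Dox, and ran from 9.42 to 11.2 in the GFP line. This ratio was examined after the values were known and was not tested.

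The wider IGF pathway was followed in a list of 24 genes, of ligands, receptors, adaptors, other carriers and other proteases, of which 14 passed the filter on low counts. With Dox in the SMARCB1 line 1 was called, beside the 14% over all genes. It was LRP1, an endocytic receptor that also binds IGFBP3, which rose from 74.7 ± 2.76 to 101 ± 2.12 CPM (SD over 2 libraries). Its log2 fold change was 0.43 (SE 0.097, edgeR adjusted p 0.00394), and 0.32 with the replicate block and the GC correction. HTRA1, a secreted protease that can cut IGFBPs, averaged 0.510 and 0.979 CPM (log2 fold change 0.96, edgeR adjusted p 0.0633). Without SMARCB1 DMSO replicate 1 the HTRA1 value was 1.54 (edgeR adjusted p 0.0238), and without SMARCB1 DMSO replicate 2 it was 0.51 (0.45). With all libraries HTRA1 was called by DESeq2 (adjusted p 0.0492), and by edgeR with the replicate block (0.0344), without the filter on low counts (0.0363) and with library totals (0.0223). The median of the 14 genes was 0.11. For Dox in the GFP line, and for the difference between both Dox effects, edgeR called 0 of the 14, with 0 and 2 at an unadjusted p under 0.05, and DESeq2 called 0.

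Between the lines without Dox, 8 of the 14 pathway genes were called, 5 higher and 3 lower in SMARCB1 DMSO, beside the 32% over all genes. The receptors IGF1R, IGF2R and INSR were higher, at 412 ± 33.5 against 296 ± 17.0 CPM for IGF1R, 245 ± 6.35 against 183 ± 6.61 for IGF2R and 100.4 ± 16.2 against 58.9 ± 3.07 for INSR. Their log2 fold changes were 0.48, 0.42 and 0.77, with edgeR adjusted p of 0.000111, 0.00137 and 1.07e-06. The adaptor IRS1 (0.34) and the protease ADAM9 (0.28) were also higher. Scaling to library totals ended the calls of IRS1 (0.22) and ADAM9 (0.15), as did leaving out GFP DMSO replicate 1 (0.29 and 0.28), and ADAM9 was also lost without SMARCB1 DMSO replicate 1 (0.13) or GFP DMSO replicate 2 (0.26).

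HTRA1 was lower in SMARCB1 DMSO, with 31 counts against 1368 in GFP DMSO over both libraries. GFP DMSO was 38-fold higher by pooled counts (95% interval 26.6 to 56.1, counting error only), a log2 fold change of −5.23 (edgeR adjusted p 3.58e-14). The GFP line, in which PAPPA was near 0, had more HTRA1 RNA, whereas the protease ADAM9 was higher in SMARCB1 DMSO (0.28). A link between these differences was not tested. GRB14, a receptor adaptor, had 0 counts in SMARCB1 DMSO and 23 in GFP DMSO. Measured against the floor in SMARCB1 DMSO (0.0483 CPM), the GRB14 level in GFP DMSO was 6.61-fold higher. LRP1 was lower in SMARCB1 DMSO (−0.42, edgeR adjusted p 0.00169), a call lost without GFP DMSO replicate 2 (−0.26). The median of the 14 was 0.21, also with GRB14 set to the value from this floor.

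The ligands themselves were scarce. IGF1 had 1 count in all 8 libraries together and INS had 0. IGF2 averaged 1.1 CPM without and 1.23 CPM with Dox in the SMARCB1 line, and 0.776 and 0.864 CPM in the GFP line, and it was not called in any comparison by edgeR with all libraries. The carriers IGFBP1, 18.6 kb from IGFBP3, and IGFALS had at most 3 counts in a library, and PRG2, whose product is another PAPPA inhibitor, had 0. The IGFBP-like gene IGFBPL1 was not scarce, with 1395 to 2760 counts in a library. Between the lines without Dox its log2 fold change was −0.26 (edgeR adjusted p 0.359). IGFBPL1 was called lower in SMARCB1 DMSO by edgeR without the filter on low counts (−0.27, adjusted p 0.0264). The same held for the replicate block (−0.28, 0.00451) and the block with a GC correction (−0.31, 0.00279). DESeq2 gave −0.27 with an adjusted p of 0.747. Leaving out single libraries moved the IGFBPL1 value between −0.71 and 0.09, so its direction depended on single libraries.

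**Figure D4:**
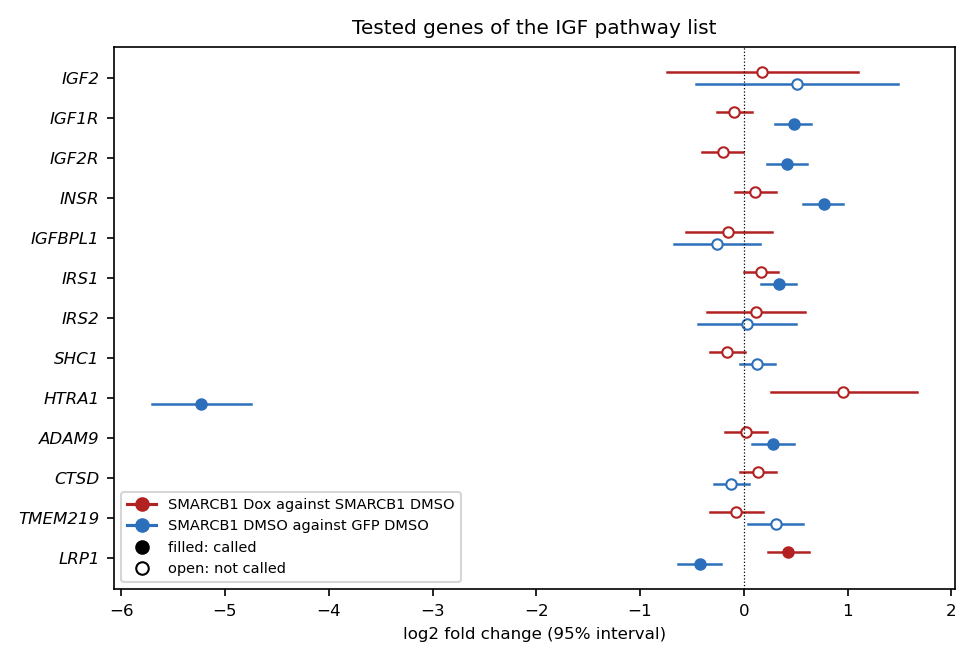
Log2 fold changes with 95% intervals (horizontal axis) of 13 of the 14 tested IGF pathway genes for SMARCB1 Dox against SMARCB1 DMSO (red) and SMARCB1 DMSO against GFP DMSO (blue), with filled points for genes called at an adjusted p under 0.05. GRB14 is left out because it had 0 counts in SMARCB1 DMSO. LRP1 is the filled red point (0.43), HTRA1 stands far to the left in blue (−5.23) and the receptors IGF1R, IGF2R and INSR are filled in blue to the right of 0.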

How the data were processed

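The deposited values are counts of reads in each gene. The authors aligned reads with STAR and counted them over exons with HTSeq in its strict intersection mode, against GENCODE release 42. Versions and the strand option are not given in the sources used here, and the submitters' processing notes name the build hg38. The methods name a directional RNA kit and the labels a ribosome profiling kit, so the library chemistry is uncertain. Overlapping and antisense genes are uncertain for this reason. Between 27.0% and 29.3% of the reads of a library fell in 5 entries that name no gene, which entered neither library sizes nor tests. Symbols, positions and exon lengths came from GENCODE release 44 on GRCh38, which matched 62625 of 69215 identifiers.

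Counts of all 8 libraries were fitted together with edgeR 4.0.16 in R 4.3.3 (default expression filter with a minimum count of 10, TMM scaling, quasi-likelihood test, 1 mean per group), and a call needed a p under 0.05 after Benjamini-Hochberg adjustment over the 15931 genes tested. CPM uses the TMM factors, and TPM the union of annotated exons without TMM factors. Replicate libraries correlated at 0.991 to 0.993 (log2 CPM) and differed by more than sampling noise, so all were kept. A floor of 3 counts was 0.0798 to 0.101 CPM in 1 library before TMM scaling. Alternatives were DESeq2 1.42.0, other scalings, no filter, only the groups compared, a replicate block with and without a GC correction, the longest transcript as length, and leaving out each library. The test was checked on simulated data. The genes, the pathway list and the comparisons were chosen with earlier results of these data known. All 10 genes are named, with the pathway genes called, SMARCB1, and the 5 protein-coding genes most like PAPPA. HTRA1 with Dox, the neighbours of PAPPA, the ligands and the carriers outside the list of 10 were named after their values were seen. The ribosome profiling libraries were not analysed here. A further marker of other cells is not reported here.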

Additional observations from a re-analysis of the deposited data

Results flagged for a closer look

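The Dox effect on IGFBP3 differed between the lines in the test of the difference itself. The log2 fold change with Dox was −0.75 for the SMARCB1 line against −0.03 for the GFP line, a difference of −0.72 (edgeR adjusted p 0.0303), and over its 14 alternatives the adjusted p ran from 1.95e-07 to 0.358. ASTN2, the gene next to PAPPA, also differed, with −0.71 in the SMARCB1 line against 0.17 in the GFP line. The difference was −0.88 (edgeR adjusted p 0.00647). Over the alternatives with all libraries the adjusted p ran from 0.000984 (edgeR with the replicate block) to 0.0108 (edgeR with library totals). Leaving out single libraries moved the difference between −0.98 and −0.77. ASTN2 was named after its values were seen, and the genes around the other members are not compared here.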

How the results depend on the processing

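With Dox in the SMARCB1 line, 3 of the 6 genes tested were called under every alternative with all libraries except DESeq2, which called 2 (IGFBP3 and IGFBP4), and the number ran from 1 to 3 when single libraries were left out. The 1 call among the pathway genes became 3 with library totals as the scaling and 2 without the expression filter, with DESeq2, with the replicate block and with the block and a GC correction, and it ran from 1 to 2 when single libraries were left out. For the difference of the Dox effects, the 1 call (IGFBP3) became 2 with library totals and with the replicate block, where IGFBP4 was added (0.50, edgeR adjusted p 0.0179), and 0 with DESeq2, and it ran from 0 to 1 when single libraries were left out. The 0 pathway calls for this difference became 1 with library totals and with the replicate block (LRP1 in both), and ran from 0 to 1 when single libraries were left out. Between the lines without Dox, 4 genes were called under all 11 alternatives. The replicate numbers were not taken as pairs in the main fit. Over all genes tested their deviations correlated at 0.148 between the groups of the SMARCB1 line and at 0.09 for the GFP line. Each rests on only 2 numbers. Yet IGFBP3, IGFBP4, IGFBP6 and IGFBP7 were higher in replicate 1 than in replicate 2 of every group, unlike STC2 and IGFBP2. For IGFBP3 with Dox in the SMARCB1 line the block lowered the SE from 0.134 to 0.074. Leaving out 1 library unbalances the replicate numbers, so for such genes it also brings this difference into the comparison. The replicate block raised the calls over all genes from 2234 to 3149 for Dox in the SMARCB1 line and from 750 to 1282 for the difference, and leaving out single libraries gave 1284 to 2009 and 390 to 805. Scaling to library totals moved the median of all genes to 0.088 for Dox in the SMARCB1 line and to −0.101 between the lines. No result changed to the opposite call. The causes of these shifts were not tested. Depth limited PAPPA2, IGFBP5 and STC1, and STC2 and PAPPA in the GFP line.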
